A study of Mus musculus with 16 samples.

Results

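TNF, its relatives and their receptors signal through adaptors and kinases to the transcription factor NF-kB, to MAP kinases and to the machinery of cell death. The genes reported are the 40 of 734 genes of a mouse myeloid expression panel whose symbol starts with Tnf, Traf, Nfk, Ikbk, Ripk, Map2k, Map3k, Mapk, Casp, Bcl2 or Birc, with Birc5, a cell division gene, left out. Rel, Rela and Relb would have been taken too, but none of them is among the genes analysed here. The 40 genes divide into 4 ligands, 8 receptors, 3 TRAF adaptors, 10 genes of the MAP kinase cascade, 3 inhibitors of NF-kB, 3 genes induced by TNF, 2 inhibitor of apoptosis genes, 2 caspases and 1 gene each for RIPK2, the kinase IKK epsilon, the NF-kB subunit p105, BCL2 and TRAFD1. TRAFD1 shares its name and a zinc finger type with the TRAF proteins but is not an adaptor of TNF receptors.

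When a ligand joins its receptor, TRAF adaptors, cellular inhibitor of apoptosis proteins and RIP kinases assemble at the receptor's tail and switch on IKK and MAP kinases. NF-kB then enters the nucleus and induces, among many genes, its own inhibitors, such as Nfkbia and Tnfaip3, which end the signal. In cells that present antigen, ligands such as those encoded by Tnfsf4 and Tnfsf9 costimulate T cells, and the receptors for them are best known on activated lymphocytes.

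The 16 mice were C57BL/6, with 4 in each of 4 groups, and the profiles are of CD11b+ cells taken from the spleen by positive selection, per the labels; the article's results describe them as also lacking CD11c. Naive mice were untreated; the other groups received 20000000 BALB/c spleen cells, described in the labels as depleted of T cells, and were profiled on day 7. The allogeneic group received the cells alone, the CTLA4-Ig group also 150 µg of CTLA4-Ig on day 2, and the EPO group CTLA4-Ig plus erythropoietin at 5000 U/kg daily. No profiled group received EPO without CTLA4-Ig or without allogeneic cells, so an effect of EPO is measured only on top of both. The mice carried no graft, and a selected spleen fraction in an immunized mouse is a limited model of a transplant recipient. The groups rest on the sample titles; a protocol field gives the letter codes of the naive and the allogeneic group the other way round, and the route of cell injection is given as intraperitoneal in the labels and as intravenous in the article's text. CD11b+ cells are a mixture, and in RNA from a mixture fewer cells that express a gene and less of its RNA per cell cannot be told apart.

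Promoter sequence is shown for 3 members because each carries, before at least 1 annotated start, the NF-kB consensus within 250 bases and each was lower with EPO. The sequences come from the RefSeq annotation of build GRCm38.p6, run from 5′ to 3′ on the gene's strand and end at the base before the start. Capitals mark matches to the 10-letter NF-kB consensus on either strand. Nfkbia, which encodes IkB alpha, the inhibitor that holds NF-kB in the cytoplasm, is read from chr12:55492648-55492897 on the minus strand. Tnfaip3, which encodes the ubiquitin-editing enzyme A20, is read from chr10:19015411-19015660 on the minus strand, and Tnfrsf9, which encodes the costimulatory receptor CD137, from chr4:150927749-150927998 on the plus strand.
Nfkbia: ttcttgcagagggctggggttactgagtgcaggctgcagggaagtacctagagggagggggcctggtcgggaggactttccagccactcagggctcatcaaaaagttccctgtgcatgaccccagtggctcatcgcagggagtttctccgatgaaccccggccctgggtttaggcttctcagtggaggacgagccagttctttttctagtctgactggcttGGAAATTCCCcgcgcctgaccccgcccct
Tnfaip3: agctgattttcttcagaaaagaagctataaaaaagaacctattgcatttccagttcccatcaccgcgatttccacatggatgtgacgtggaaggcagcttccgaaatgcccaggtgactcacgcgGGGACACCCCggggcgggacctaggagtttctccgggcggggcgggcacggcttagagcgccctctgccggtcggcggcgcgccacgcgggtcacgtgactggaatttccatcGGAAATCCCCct
Tnfrsf9: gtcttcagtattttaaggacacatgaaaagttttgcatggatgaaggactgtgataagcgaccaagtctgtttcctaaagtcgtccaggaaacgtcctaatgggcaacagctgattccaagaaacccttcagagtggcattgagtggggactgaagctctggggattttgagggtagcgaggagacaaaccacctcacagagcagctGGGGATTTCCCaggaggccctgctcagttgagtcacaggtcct

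The match begins 29 bases before the start in Nfkbia, 125 and 12 bases before it in Tnfaip3, and in Tnfrsf9 at 43 and 42 bases, where 2 matches overlap. Tnfaip3 and Tnfrsf9 each have 2 annotated starts, and the window of the other start has 0 matches in both. Of the 33 members with a promoter entry, 5 (15.2%) have a match: these 3, Nfkbie and Tnfrsf8. Counted by gene in the same way, the share is 4.46% of all 27025 genes with an entry and 10.6% of the 555 panel genes with an entry; counted by window, it is 3.9% of all 32851 promoter windows. Among members lower with EPO the match was found in 3 of 17, among those not called in 2 of 12, and among those higher in 0 of 4. A match describes the sequence and is neither a measured binding site nor a cause of a change. Members without an entry include Nfkb1, Nfkbiz, Ripk2, Tnfaip8, Tnfsf4 and Tnfsf9.

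Some libraries and a scale set bounds on what follows. Naive mouse 1 stands apart from the other naive mice: its neutrophil genes sum to 770375 on the unlogged deposited scale against 261419 to 352084 in the other 3, and Irf8 has a recovered count of 1 in it against 560 to 632. Without that mouse, 23 members rather than 22 are called between the allogeneic and naive groups, 3 higher and 20 lower: Tnfrsf4 and Tnfrsf11a are gained and Nfkb1 is lost. Over all genes, 488 rather than 516 are called. The deposited values multiply each naive library's counts by 1.27 to 1.85 and every other library's by 0.56 to 0.79. The 40 members take 1.65% to 2.72% of the counts in naive mice, 3.15% to 3.73% in the allogeneic group, 3.27% to 3.55% with CTLA4-Ig and 2.44% to 2.62% with EPO. Comparisons with naive mice therefore turn on the scale, and changes in them are given relative to the median gene as well.

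**Figure D1:**
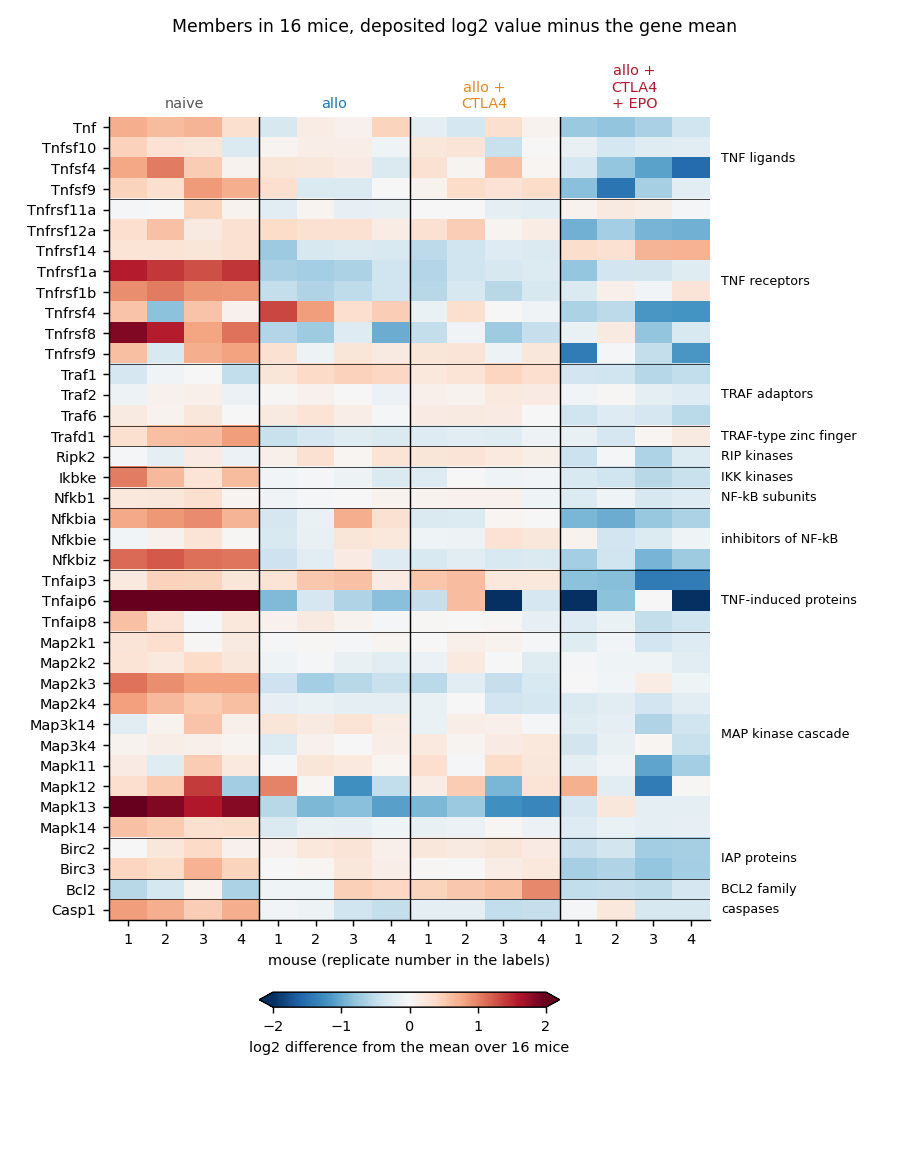
Deposited log2 values of the members (1 is not drawn) in each of the 16 mice, each gene shown as its difference from its mean over all mice, with genes ordered by role and mice by group. The EPO columns hold the lowest Tnfaip3 values, 10.75 to 11.33 log2 against 12.33 to 12.77 in the other 12 mice.

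With EPO added to CTLA4-Ig, more members were called lower than higher, among them ligands, adaptors and feedback inhibitors. Of the 40 members, 26 were called, 22 lower and 4 higher, beside 51.1% of all genes called (28.3% lower and 22.8% higher). The median change was −0.31 log2 over the members and −0.07 over all genes, and 28 of the 40 lay below the all-gene median. The groups did not overlap for 24 members, against 48.8% of all genes. With each mouse centred on its median, which moves the all-gene median to −0.28, the split was 28 lower and 2 higher, beside 37.6% and 17.2% of all genes. The split was 14 and 5 by CPM (146 and 184 over all genes), 15 and 5 by voom (151 and 189), and 16 and 4 on the deposited scale without EPO mouse 3 (176 and 168). Over all genes, calls by CPM and voom were thus more often higher than lower.

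Among the ligands, Tnf itself stood at 6.49, 6.33, 7.01 and 6.75 log2 in the CTLA4-Ig mice and at 5.94, 5.89, 6.02 and 6.27 in the EPO mice. It fell by 0.61 log2 (SE 0.17, adjusted p 0.00824), with no overlap, although with counts scaled to each library's total (CPM) the adjusted p was 0.0506. Tnfsf4, which encodes the OX40 ligand, had 4.00, 3.75, 4.28 and 3.74 log2 with CTLA4-Ig and 3.34, 2.93, 2.62 and 2.16 with EPO, a change of −1.18 (SE 0.25, adjusted p 0.000969). For Tnfsf9, the CD137 ligand, values of 4.61, 4.91, 4.82 and 4.91 log2 became 3.70, 3.07, 3.86 and 4.31, a change of −1.08 (SE 0.22, adjusted p 0.000843). All 4 EPO mice lay below all 4 CTLA4-Ig mice for each of these ligands. Tnfsf4 and Tnfsf9 are scarce, both among the 7 members with a mean recovered count under 50. Tnfsf10, which encodes the death ligand TRAIL, was not called, with 4.78 to 4.99 log2 under EPO and 4.70 to 5.39 under CTLA4-Ig, though with centred mice and quantile scaling it was called lower.

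The receptors divided. Tnfrsf4, the receptor OX40, read 5.29, 5.73, 5.41 and 5.35 log2 with CTLA4-Ig and 4.78, 4.89, 4.25 and 4.21 with EPO, a change of −0.91 (SE 0.30, adjusted p 0.0182). Tnfrsf9 read 4.34, 4.36, 3.99 and 4.33 log2 against 2.70, 4.07, 3.62 and 2.94, a change of −0.92 (SE 0.28, adjusted p 0.0133). It is scarce, with recovered counts of 29, 26, 27 and 30 with CTLA4-Ig and 9, 22, 22 and 12 with EPO. OX40 and CD137 are the partners of the products of Tnfsf4 and Tnfsf9, which fell most among the 4 ligands of the 40 members. The groups are apart for Tnfrsf4 but overlap for Tnfrsf9, where EPO mouse 2 exceeds CTLA4-Ig mouse 3. Tnfrsf4 was no longer called without CTLA4-Ig mouse 2, EPO mouse 3 or EPO mouse 4, with changes of −0.80 to −1.03 across all mice left out in turn. Tnfrsf12a, the receptor for the cytokine TWEAK, fell with little spread: 6.93, 7.11, 6.67 and 6.77 log2 became 5.66, 5.93, 5.69 and 5.66, a change of −1.14 (SE 0.11, adjusted p 1.27e-06).

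Tnfrsf14, which encodes HVEM, the receptor for LIGHT and BTLA, went the other way. It stood at 7.61, 7.74, 7.88 and 7.86 log2 with CTLA4-Ig and at 8.49, 8.44, 8.82 and 8.84 with EPO, a rise of 0.88 (SE 0.12, adjusted p 2.6e-05). Tnfrsf1b, TNF receptor 2, went from 8.17, 8.41, 8.17 and 8.41 log2 to 8.44, 8.84, 8.67 and 8.99, a rise of 0.44 (SE 0.11, adjusted p 0.00476). Every EPO mouse was above every CTLA4-Ig mouse for both, the margin for Tnfrsf1b being small, and with mice centred on their medians Tnfrsf1b was not called. TNF receptor 1, the product of Tnfrsf1a and the receptor with a death domain, was not called: 9.02 to 9.34 log2 with CTLA4-Ig and 8.84 to 9.36 with EPO. Tnfrsf8 (CD30) and Tnfrsf11a (RANK) were not called either, at 3.33 to 4.31 and 6.14 to 6.34 log2 with EPO.

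**Figure D2:**
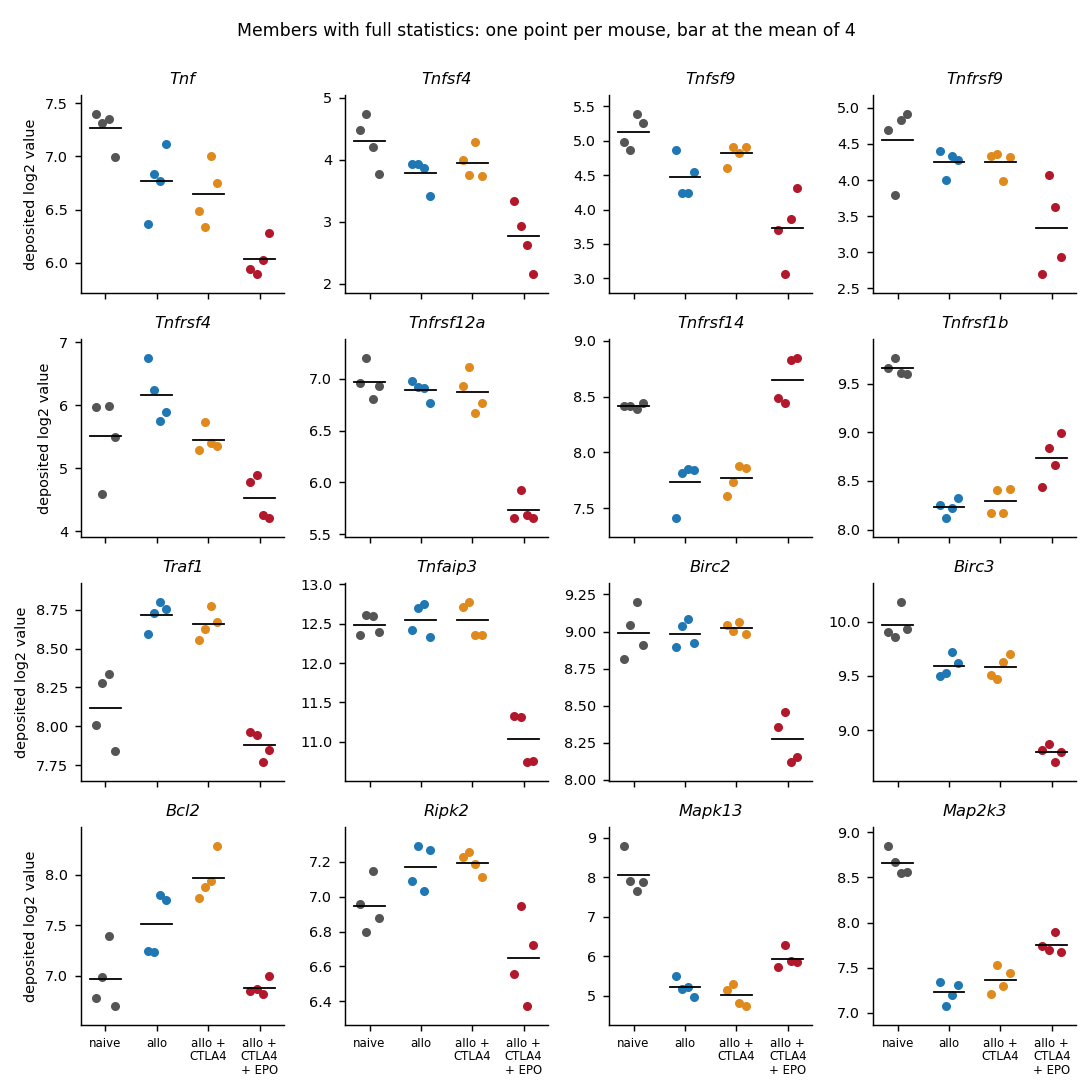
Deposited log2 value of selected members in each mouse by group, 1 point per mouse, with the group mean as a line (CTLA4 on the axis stands for CTLA4-Ig). Tnfaip3 lies at 10.75 to 11.33 log2 in the EPO mice against 12.36 to 12.77 with CTLA4-Ig, and Tnfrsf14 at 8.44 to 8.84 against 7.61 to 7.88.

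Below the receptors, all 3 TRAF adaptors fell with EPO. Traf1, an adaptor that NF-kB itself induces, measured 8.56, 8.62, 8.78 and 8.67 log2 with CTLA4-Ig and 7.97, 7.94, 7.77 and 7.85 with EPO, a change of −0.78 (SE 0.11, adjusted p 2.98e-05). Traf6, which also serves Toll-like and IL-1 receptors, fell by 0.51 log2 (7.86 to 8.06 with CTLA4-Ig, 7.33 to 7.62 with EPO). Traf2, the adaptor of both TNF receptors, moved least: 8.67, 8.63, 8.77 and 8.73 log2 against 8.51, 8.59, 8.38 and 8.31, a change of −0.25 (SE 0.09, adjusted p 0.0286). The Traf2 groups do not overlap, yet the call was lost without CTLA4-Ig mouse 3 or 4 or EPO mouse 3 or 4, with changes of −0.20 to −0.30 across all mice left out in turn, and under quantile, CPM and voom scaling. Trafd1 was not called, at 7.52 to 8.04 log2 with EPO and 7.60 to 7.75 with CTLA4-Ig.

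Among the kinases that carry the signal to NF-kB, Ripk2, which acts below the NOD receptors, fell. Its values were 7.23, 7.25, 7.19 and 7.11 log2 with CTLA4-Ig and 6.55, 6.95, 6.37 and 6.72 with EPO, a change of −0.55 (SE 0.12, adjusted p 0.00151) with no overlap. Ikbke, which encodes IKK epsilon, fell by 0.33 log2 with an adjusted p of 0.0494, and lost its call without CTLA4-Ig mouse 2, 3 or 4 or EPO mouse 2, 3 or 4. Map3k14, the kinase NIK of the alternative NF-kB pathway, fell by 0.38 log2 (6.91 to 7.18 with CTLA4-Ig, 6.44 to 6.87 with EPO) and lost its call without CTLA4-Ig mouse 2, 3 or 4 or EPO mouse 3 or 4. Nfkb1, the precursor p105 of the subunit p50, had 10.03, 10.05, 10.04 and 9.87 log2 with CTLA4-Ig and 9.69, 9.88, 9.64 and 9.70 with EPO. It fell by 0.27 log2 (SE 0.09, adjusted p 0.015), with a narrow overlap between CTLA4-Ig mouse 4 and EPO mouse 2, and was not called by CPM or voom.

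The deepest fall among all members was in the feedback arm. Tnfaip3 measured 12.71, 12.77, 12.36 and 12.36 log2 in the CTLA4-Ig mice and 11.33, 11.31, 10.75 and 10.75 in the EPO mice. A20 transcript thus fell by 1.52 log2 (SE 0.16, 95% interval −1.87 to −1.17, adjusted p 2.3e-06), and the highest EPO mouse lay well below the lowest CTLA4-Ig mouse. Nfkbia stood at 9.52, 9.53, 9.85 and 9.82 log2 with CTLA4-Ig and at 8.89, 8.81, 9.05 and 9.16 with EPO, a change of −0.70 (adjusted p 0.00592). Nfkbiz, an IkB protein that acts in the nucleus, fell by 0.40 log2 and was not called without EPO mouse 3, while Nfkbie, IkB epsilon, was not called and its groups overlap at 7.15 to 7.53 and 6.87 to 7.33 log2. Nfkbie and Tnfaip8 were called lower with centred mice. Tnfaip8, which restrains cell death, and Tnfaip6 were not called in the main fit on the deposited scale. On that scale Tnfaip8 was called lower without naive mice, without EPO mouse 2, with the lowest 25% of genes left out, and with trended and robust moderation. Tnfaip6 had recovered counts of only 2 to 12 with EPO and 1 to 13 with CTLA4-Ig. It was called lower without CTLA4-Ig mouse 3, which holds the count of 1.

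The MAP kinase cascade moved in both directions, with 4 of its 10 genes lower, 2 higher and a median of −0.16 log2. Mapk13, p38 delta, had 5.15, 5.30, 4.82 and 4.74 log2 with CTLA4-Ig and 5.72, 6.28, 5.88 and 5.86 with EPO, a rise of 0.93 (SE 0.22, adjusted p 0.00246). Map2k3, a kinase that activates p38, went from 7.21, 7.53, 7.29 and 7.44 log2 to 7.75, 7.70, 7.90 and 7.67, a rise of 0.38 (SE 0.10, adjusted p 0.00548). The groups are apart for both genes, but Map2k3 was not called with mice centred on their medians. Mapk11, p38 beta, fell by 0.73 log2 (5.42 to 5.81 with CTLA4-Ig, 4.37 to 5.36 with EPO), whereas Mapk14, p38 alpha and the most abundant p38 gene, stood at 10.14 to 10.31 log2 with CTLA4-Ig and 10.04 to 10.16 with EPO and was not called. Map2k1 (MEK1) and Map3k4 fell (−0.27 and −0.39 log2); Map2k1 lost its call without CTLA4-Ig mouse 2 or 3 or EPO mouse 3. Map2k2, Map2k4 and Mapk12 were not called, and Map2k2, Map2k4 and Mapk14 were called lower only with mice centred on their medians.

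Of the genes that bear on survival, Bcl2, Birc2 and Birc3 fell, and Casp1 was not called. Bcl2, which guards the mitochondrial membrane, stood at 7.77, 7.88, 7.93 and 8.28 log2 with CTLA4-Ig and at 6.84, 6.87, 6.82 and 7.00 with EPO, a change of −1.08 (SE 0.17, adjusted p 9.44e-05). Birc3, the ubiquitin ligase cIAP2, went from 9.51, 9.47, 9.63 and 9.70 log2 to 8.82, 8.88, 8.71 and 8.80, a change of −0.78 (SE 0.09, adjusted p 5.85e-06). Its relative Birc2, cIAP1, went from 9.05, 9.01, 9.06 and 8.99 log2 to 8.36, 8.46, 8.12 and 8.16, a change of −0.75 (SE 0.10, adjusted p 2.02e-05). For each of these 3 the highest EPO mouse lies far below the lowest CTLA4-Ig mouse.

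Casp1, the inflammasome caspase, differed by 0.22 log2, and its groups overlap widely, at 8.43 to 8.74 and 8.60 to 9.13. With the replicate number as a block, Casp1 was called higher and Tnfaip8 lower.

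**Figure D3:**
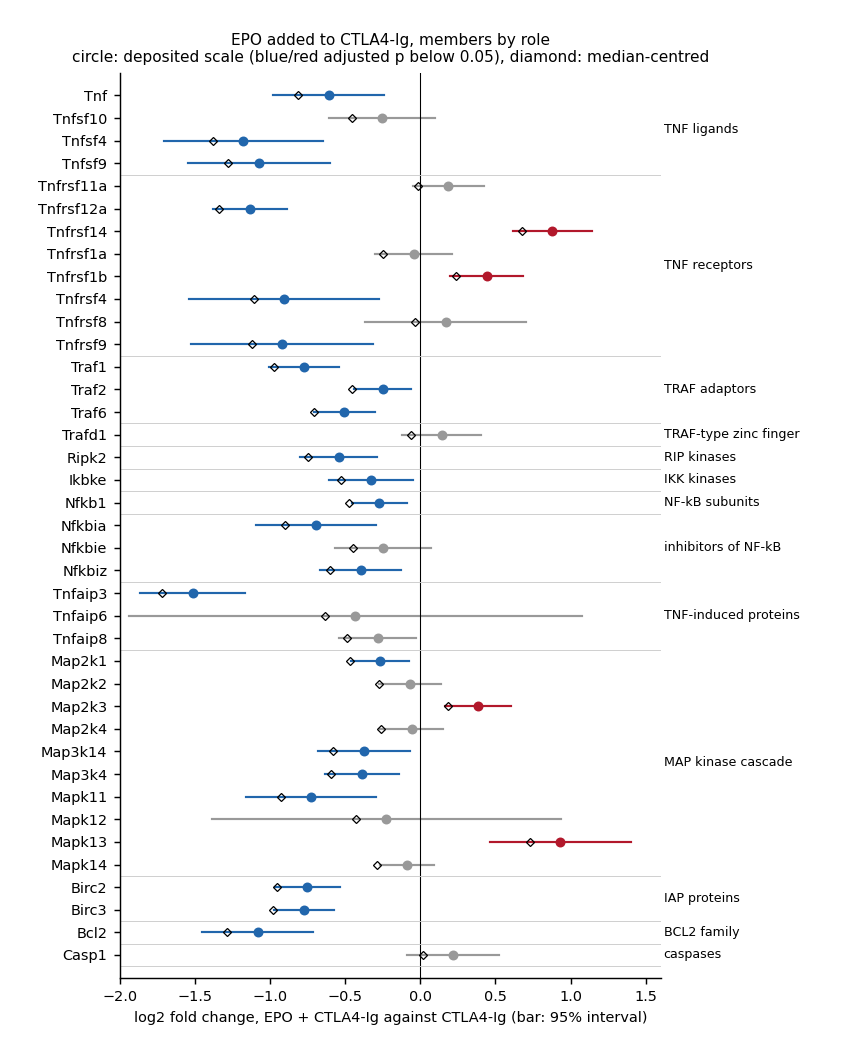
Log2 change of the members (1 is not drawn) with EPO added to CTLA4-Ig, by role: circles with 95% intervals on the deposited scale, coloured where called, and diamonds with mice centred on their medians. On the deposited scale Tnfaip3 is lowest at −1.52 and Mapk13 highest at 0.93.

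Not every call depends on the scale. Under the deposited scale, median centring, quantile scaling, CPM and voom alike, 14 members were called lower (Bcl2, Birc2, Birc3, Mapk11, Nfkbia, Ripk2, Tnfaip3, Tnfrsf12a, Tnfrsf4, Tnfrsf9, Tnfsf4, Tnfsf9, Traf1 and Traf6) and 2 higher (Mapk13 and Tnfrsf14). By CPM the split was 14 lower and 5 higher, so that 26.3% of the calls were higher against 15.4% on the deposited scale; over all genes the share was 55.8% against 44.5%. Ikbke, Map2k1, Map3k14, Map3k4, Nfkb1, Nfkbiz and Traf2 were called neither by CPM nor by voom. No member was called in opposite directions.

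Lists of neighbouring genes are given beside the 51.1% of all genes called with EPO. Of 7 other TNF family genes on the panel, 4 fell with EPO and none rose, by a median of −0.50 log2, the top falls being Cd40lg (−1.88), Cd27 (−0.89) and Ltb (−0.57). Of 6 adaptors and partners, Malt1, Nod2 and Bcl10 fell, with Malt1 at 10.49 to 10.65 log2 under CTLA4-Ig and 8.92 to 9.42 under EPO. Among 24 genes known as NF-kB targets, 11 fell, led by Ccr7 (−1.52), Cd83 (−1.48) and Ccl4 (−1.31), and 3 rose: Vcam1 (1.72), Il1a (1.68) and, except with mice centred on their medians, Cxcl10 (0.55). All 9 genes for AP-1, EGR and MAP kinase phosphatases fell, by a median of −0.97, and Egr3 (−1.96), Fosb (−1.57) and Atf3 (−1.50) fell most. Of 4 death genes outside the symbol rule, Nlrp3 and Gzma fell and Pycard rose, the last not with centred mice, and Bid was not called on the deposited scale.

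Markers of cell types also differed between these groups, where 28.3% of all genes were called lower and 22.8% higher. With centred mice these shares were 37.6% and 17.2%. On the unlogged deposited scale, 5 T cell genes, all called lower, summed to 1326, 1374, 1269 and 1354 with CTLA4-Ig and to 561, 461, 369 and 406 with EPO; their most abundant gene is Cd28, and the Cd3 genes were not analysed here. The 3 B cell genes, led by Ms4a1, fell (means 3055 and 1755), as did the 3 NK cell genes, led by Gzma (9753 and 5716), and 3 of 7 dendritic cell genes, while Xcr1 rose, though not with centred mice. Irf8, the most abundant gene of the dendritic cell list, was not called, although its groups are apart. It stood at 9.87 to 10.09 log2 with CTLA4-Ig and 9.36 to 9.74 with EPO. Its SE of 1.44 comes from a fit that includes its count of 1 in naive mouse 1. All 8 red pulp macrophage genes rose, their sum led by Vcam1 (7857 and 27984), with 7 of 10 myeloid genes led by Tyrobp (12515 and 20403; 6 of 10 with centred mice, Tyrobp not called), 7 of 11 neutrophil genes led by S100a9 (19239 and 60135), 4 of 6 eosinophil genes led by Prg2 (356 and 2845) and the platelet gene Pf4, while the eosinophil gene Il5ra fell. Of 4 monocyte genes, Chil3 and, except with centred mice, Ccr2 rose on the deposited scale. No erythroid marker of the list is among the genes analysed here, Irf8 in naive mouse 1 was the only marker at the lowest count, and Cd40, Cd40lg, Gzma and Vcam1 each stand in 2 lists. The part of changed cell numbers in the changes of Bcl2, Traf1, Tnfrsf4, Tnfrsf14 and the other members was not tested.

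**Figure D4:**
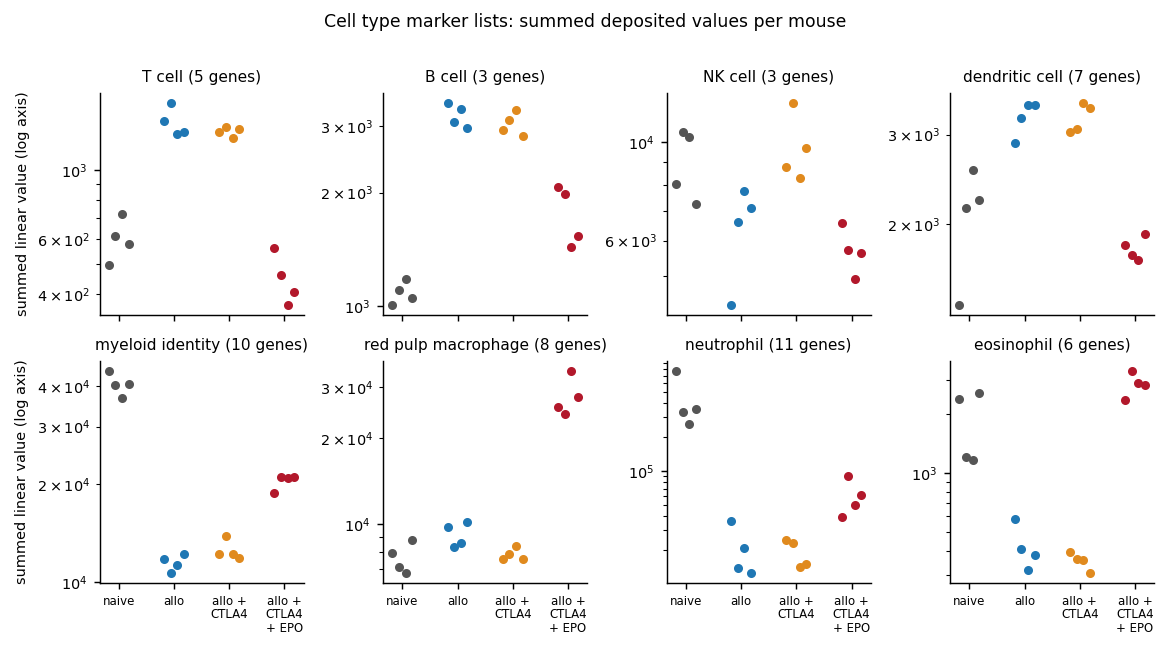
Sum of the unlogged deposited values of each marker list in each mouse, 1 point per mouse by group, on a log axis. T cell genes sum to 369 to 561 in the EPO mice and to 1269 to 1374 with CTLA4-Ig, and red pulp macrophage genes to 24276 to 34196 and 7558 to 8411.

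Allogeneic spleen cells against naive mice gave large differences whose direction depends for most members on the scale. On the deposited scale 22 of 40 members were called, 20 lower and 2 higher, beside 70.3% of all genes (58.4% lower and 11.9% higher). The members' median was −0.38 log2 and that of all genes −0.65, so that 27 of 40 members lay above the median gene, and the groups were apart for 17 members against 61.2% of all genes. With each mouse centred on its median, the all-gene median moved to 0.08 and the split turned to 7 lower and 20 higher, beside 26.7% and 33% of all genes. Quantile scaling gave 7 and 21, and CPM and voom each 5 and 25, and calls over all genes turned too: 192 lower and 251 higher by quantile scaling, 132 and 334 by CPM, and 137 and 339 by voom.

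Called in the same direction under all 5 scalings were 7 members, 5 lower and 2 higher. Tnfaip6, an inflammation-induced protein that binds hyaluronan, had 6.02, 5.43, 5.83 and 5.54 log2 in naive mice and 1.87, 2.41, 2.15 and 1.91 in the allogeneic group, a change of −3.62 (SE 0.70, adjusted p 0.000358). Mapk13 went from 8.78, 7.91, 7.66 and 7.88 log2 to 5.50, 5.16, 5.22 and 4.97, a change of −2.84 (SE 0.22, adjusted p 3.07e-08). Relative to the median gene these falls are −2.97 and −2.20, with wide gaps between groups, though Tnfaip6 rests on 34 or 35 recovered counts per naive mouse against 5 to 7.

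The receptors Tnfrsf1a and Tnfrsf8 and the kinase Map2k3 complete the 5 that fell. Tnfrsf1a stood at 11.18, 11.03, 10.90 and 11.03 log2 in naive mice and at 8.96, 8.93, 8.98 and 9.21 in the allogeneic group, a change of −2.01 (SE 0.12, adjusted p 2.05e-09). Tnfrsf8 went from 5.98, 5.70, 4.91 and 5.21 log2 to 3.54, 3.41, 3.86 and 3.14, a change of −1.96 (SE 0.25, adjusted p 6.84e-06), and Map2k3 from 8.85, 8.68, 8.55 and 8.56 to 7.34, 7.08, 7.20 and 7.30, a change of −1.43 (SE 0.10, adjusted p 1.39e-08). All 3 are apart on the deposited scale, and their changes relative to the median gene are −1.36, −1.31 and −0.78. For Tnfrsf8 the recovered counts themselves, 34, 41, 18 and 27 in naive mice and 16, 14, 23 and 14 after allogeneic cells, overlap. Tnfrsf1b and Nfkbiz fell (−1.42 and −1.31 log2) but were not called by CPM or voom.

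Traf1 and Bcl2 rose. Traf1 was at 8.01, 8.28, 8.34 and 7.84 log2 in naive mice and at 8.59, 8.73, 8.80 and 8.75 in the allogeneic group, a rise of 0.60 (SE 0.11, adjusted p 0.000198), or 1.25 relative to the median gene. Bcl2 was at 6.77, 6.98, 7.40 and 6.70 log2 and then at 7.25, 7.24, 7.80 and 7.75, a rise of 0.54 (SE 0.17, adjusted p 0.0119), or 1.19 relative to the median gene. The Traf1 groups are apart, and those of Bcl2 overlap through naive mouse 3.

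For the cytokine and the transcription factor at the pathway's core the sign follows the scale. Tnf had 7.40, 7.32, 7.35 and 6.99 log2 in naive mice and 6.37, 6.83, 6.76 and 7.12 after allogeneic cells, −0.50 on the deposited scale (SE 0.17, adjusted p 0.0193) but 0.24 with centred mice and 0.59 by CPM. Nfkb1 had 10.16, 10.19, 10.29 and 10.01 log2 and then 9.89, 9.93, 9.97 and 10.03, −0.21 on the deposited scale (SE 0.09, adjusted p 0.0437) but 0.52 and 0.88 on the others. Both pairs of groups overlap. The Tnf call on the deposited scale was lost without allogeneic mouse 1, with a change of −0.36, and the Nfkb1 call without naive mouse 1, 2 or 3 or allogeneic mouse 1, 2 or 3, with changes of −0.17 to −0.26 across all mice left out in turn. Tnf and Nfkb1 are among 8 members called in opposite directions under different scalings, as are Birc3, Ikbke, Map2k2, Mapk14 and Tnfrsf14, and 25 of the 40 change sign.

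Tnfaip3, so low with EPO, stood close in both groups here: 12.35, 12.61, 12.59 and 12.39 log2 in naive mice and 12.42, 12.70, 12.75 and 12.33 after allogeneic cells, a difference of 0.06 (SE 0.16, adjusted p 0.75). Traf2, at 8.46, 8.65, 8.66 and 8.45 log2 and then 8.60, 8.65, 8.58 and 8.45, differed by 0.02 (SE 0.09, adjusted p 0.877). Ripk2, at 6.96, 6.80, 7.15 and 6.88 log2 and then 7.09, 7.29, 7.03 and 7.27, differed by 0.23 (SE 0.12, adjusted p 0.107). Groups overlap for all 3, and relative to the median gene they lie at 0.71, 0.66 and 0.87, called higher under each of the other 4 scalings. Tnfsf9 was also lower on the deposited scale, at −0.65, but at 0.00 relative to the median gene, and lost its call without allogeneic mouse 2 or 3 or naive mouse 3. Casp1 fell by 0.96 log2 on the deposited scale and was not called under the others.

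**Figure D5:**
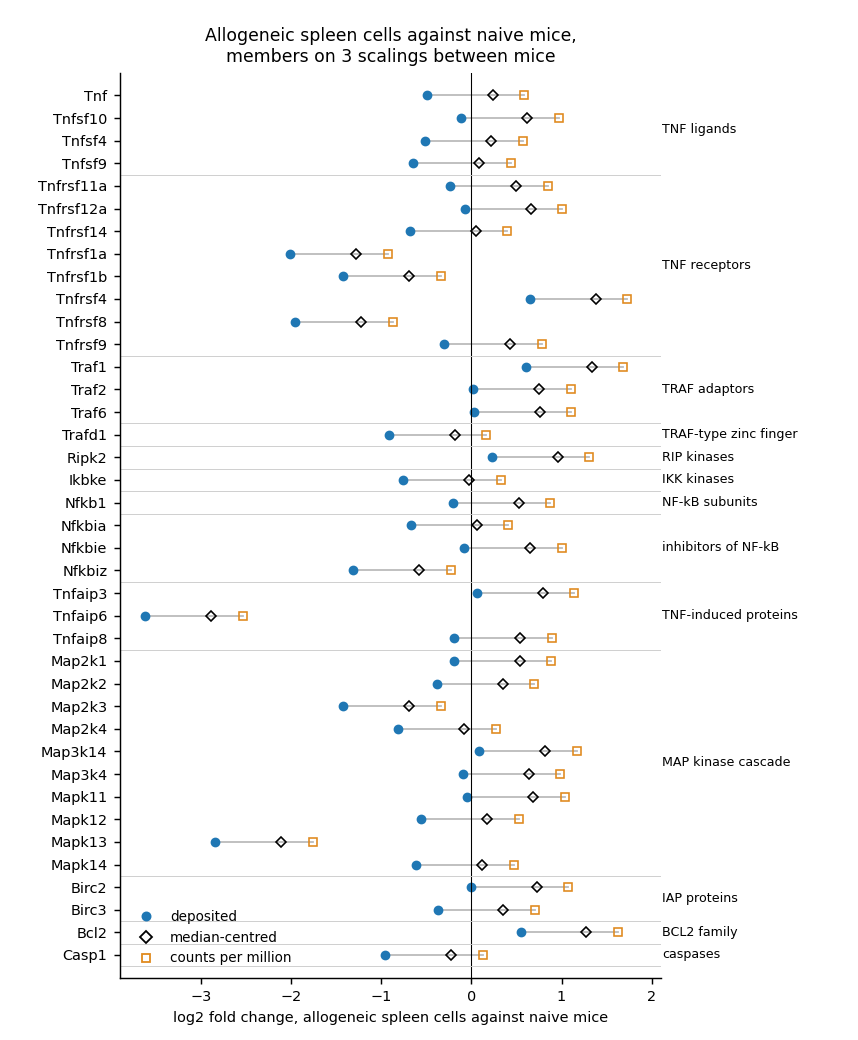
Log2 change of the members (1 is not drawn) between the allogeneic and naive groups as circles on the deposited scale, diamonds with mice centred on their medians and squares by CPM. Nfkb1 runs from −0.21 on the deposited scale to 0.88 by CPM, and Mapk13, at −2.84 on the deposited scale, is below 0 in each.

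The neighbouring genes are given beside all genes, of which 58.4% were called lower and 11.9% higher on the deposited scale. With centred mice these shares were 26.7% and 33%. Of 24 NF-kB targets 14 were lower and 7 higher on the deposited scale, 5 and 10 with centred mice; Il1b (−4.19), Cxcl2 (−3.92) and Ccl2 (−2.32) fell most, and Ccr7 (1.75), Cd83 (1.16) and Il12a (0.97) rose most. Of 7 further TNF family genes Cd40lg, Lta, Cd27 and Ltb rose and Fas fell (5 and 1 with centred mice), and of 6 adaptors Malt1 rose and 4 fell, led by Myd88 (−1.77), or 2 and 2 with centred mice. The 9 AP-1, EGR and phosphatase genes gave 3 higher and 3 lower, or 6 and 2 with centred mice, and 3 of 4 death genes were lower, led by Nlrp3 (−1.81), or 1 with centred mice.

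All 5 T cell and all 3 B cell genes rose, their sums averaging 602 and 1084 in naive mice and 1431 and 3211 after allogeneic cells. All 11 neutrophil, 10 myeloid and 4 monocyte genes fell, along with 5 of 6 eosinophil genes and 2 of 3 NK cell genes, while Il5ra of the eosinophil list rose. With centred mice the falls were 11, 8, 3, 5 and 0 in these lists, and Klrk1 of the NK cell list was called higher. Over all genes, 58.4% were called lower and 11.9% higher on the deposited scale, against 26.7% and 33% with centred mice. The neutrophil sum averaged 428451 and 20948. Of 7 dendritic cell genes 4 rose and 1 fell (5 and 1 with centred mice), of 8 red pulp genes 3 rose and 1 fell (7 and 0 with centred mice), and Pf4 was not called on the deposited scale but was higher with centred mice. What these shifts contribute to the changes of Tnfaip6, Mapk13, Tnfrsf1a, Traf1 and Bcl2 was not tested.

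With CTLA4-Ig added to allogeneic cells no member was called. Limma called 0 of 40 members and 0 of 734 genes (0%), and voom likewise 0 members and 0 genes. At an unadjusted p below 0.05 there were 2 members, 1 higher and 1 lower, beside 70 genes (9.54%). The members' median was 0.02 log2, and the groups were apart for 2 members, Map3k14 and Tnfrsf4, against 7.36% of all genes. None of the genes in the pathway and cell type lists was called.

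The member with the lowest value was Tnfrsf4, at 6.74, 6.25, 5.75 and 5.90 log2 with allogeneic cells alone and 5.29, 5.73, 5.41 and 5.35 with CTLA4-Ig, a difference of −0.72 (SE 0.30, adjusted p 0.523). Bcl2, at 7.25, 7.24, 7.80 and 7.75 log2 and then 7.77, 7.88, 7.93 and 8.28, had the highest difference, 0.46 (SE 0.17, adjusted p 0.523). Every CTLA4-Ig mouse lies below every allogeneic mouse for Tnfrsf4 by a hair at the nearest point, while the Bcl2 groups overlap.

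The remaining core genes sat close together. Tnf differed by −0.12 log2 (SE 0.17, adjusted p 0.91) and Tnfaip3 by 0.00 (SE 0.16, adjusted p 0.997). Traf1 differed by −0.06 (SE 0.11, adjusted p 0.922), Traf2 by 0.13 (SE 0.09, adjusted p 0.778), Nfkb1 by 0.04 (SE 0.09, adjusted p 0.936) and Ripk2 by 0.02 (SE 0.12, adjusted p 0.976). The 95% interval for Tnfaip3, −0.35 to 0.35, leaves out a change as large as the fall with EPO.

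Across the 4 groups together, 35 of 40 members differed by limma's F-test, beside 85.3% of all genes. The 5 not called were Mapk12, Nfkbie, Tnfrsf11a, Tnfsf10 and Traf2. Group means set the patterns apart: Tnfaip3 averaged 12.49 log2 in naive mice, 12.55 with allogeneic cells, 12.55 with CTLA4-Ig and 11.03 with EPO, and Tnfrsf12a 6.97, 6.90, 6.87 and 5.73, so that both stood out only in the EPO group on this scale. Tnfrsf14 averaged 8.42, 7.73, 7.77 and 8.65, where the place of the naive mice depends on the scale, while Mapk13 averaged 8.06 in naive mice, 5.21 with allogeneic cells and 5.94 with EPO. Traf1 averaged 8.12, 8.72, 8.66 and 7.88 and Bcl2 6.96, 7.51, 7.97 and 6.88, lowest in the EPO and naive groups. Tnfrsf1a, at 11.03, 9.02, 9.21 and 9.17, separated naive mice from the rest.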

How the data were processed

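The authors profiled RNA of splenic CD11b+ cells from 16 mice with the nCounter Myeloid Innate Immunity panel and deposited normalized values in log2 for 734 genes. Each deposited log2 value is that of a whole number times 1 factor per mouse (100% of values within 0.001 of whole), so counts were recovered by dividing by the factor; a recovered count of 1 may stand for 0. Recovered totals run from 562760 to 912328 per mouse, and 7 members have a mean recovered count under 50, where counting error is a sizeable part of the spread. The members and lists were chosen with earlier results of these data known.

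Groups follow the sample titles. Deposited values were fitted with limma 3.58.1 in R 4.3.3, with 4 group means over 16 mice and moderated variances, and 3 contrasts and an F-test were taken; p values are two-sided, adjusted by the Benjamini-Hochberg method over 734 genes, and called below 0.05. Tables and plots used Python 3.11.15, numpy 2.4.6, pandas 2.3.3 and matplotlib 3.10.9. The fit was tested on simulated data with known changes.

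Values of every mouse with full statistics are given by a rule: among called members, up to 10 per direction by size of change with EPO and up to 5 per direction between allogeneic and naive mice, each member with an unadjusted p below 0.05 with CTLA4-Ig, and Tnf, Tnfaip3, Traf1, Traf2, Nfkb1 and Ripk2. From each list of neighbouring genes the 3 largest called changes in each direction are named, and from each marker list the most abundant gene.

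Replicate numbers were checked as possible pairs: between the CTLA4-Ig and EPO groups the values of equal numbers correlate at 0.156, 0.183, 0.174 and 0.143 after group means are removed, although for number 2 another number gives 0.192. For the allogeneic and naive groups the values are 0.165, −0.038, −0.030 and −0.058, and for the CTLA4-Ig and allogeneic groups 0.293, 0.016, 0.189 and 0.041. The numbers were not paired in the fit, and a fit with the number as a block was tried. Other alternatives were median centring, quantile scaling, recovered counts scaled to each library's total (CPM), voom on recovered counts, leaving out the lowest 25% of genes, only the groups compared, no naive mice, trended and robust moderation, other thresholds and leaving out each mouse in turn. The block with median centring was added after seeing the data.

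Lists of neighbouring genes and cell type markers were described by counts, medians and sums, with no set test. Promoters are the 250 bases before RefSeq transcription starts, GRCm38.p6, searched on 2 strands. No sample column was left out.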

Additional observations from a re-analysis of the deposited data

Results flagged for a closer look

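In 84 groups of 4 mice, 1 for each member with full statistics in each group, the gap between the farthest mouse and its nearest neighbour was divided by the group's range; a ratio above Dixon's critical value was found in 6, where chance gives about 1 in 20 groups. In the allogeneic group, Tnfrsf14 is 7.42 log2 in mouse 1 against 7.82 to 7.85 in the other 3 (ratio 0.915), Tnfsf4 is 3.42 in mouse 4 against 3.86 to 3.94 (0.855), and Tnfrsf1a is 9.21 in mouse 4 against 8.93 to 8.98 (0.830). In the CTLA4-Ig group, Nfkb1 is 9.87 log2 in mouse 4 against 10.03 to 10.05 (0.884) and Tnfrsf9 is 3.99 in mouse 3 against 4.33 to 4.36 (0.903). In the EPO group, Tnfrsf12a is 5.93 log2 in mouse 2 against 5.66 to 5.69 (0.895). No mouse appears among these for more than 2 genes, and the cause was not tested. These mice were kept in every comparison except where each was left out in turn.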

How the results depend on the processing

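With EPO added to CTLA4-Ig, 4 members higher and 22 lower became 2 higher with median centring, 2 higher and 13 lower with a minimum of 1.5-fold, and 14 lower by CPM. Over all genes, 167 higher and 208 lower became 126 and 276 with median centring and 126 and 145 with the 1.5-fold minimum. By CPM they became 184 and 146. Between the allogeneic and naive groups, 2 higher and 20 lower became 20 and 7 with median centring, 21 and 7 with quantile scaling, 25 and 5 by CPM and 25 and 5 by voom, and 1 was higher with the 1.5-fold minimum. Over all genes, 87 higher and 429 lower became 242 and 196 with median centring and 251 and 192 with quantile scaling. They became 334 and 132 by CPM, 339 and 137 by voom, and 65 and 361 with the 1.5-fold minimum. With CTLA4-Ig, an unadjusted p gave 1 higher and 1 lower in place of 0 and 0, beside 36 and 34 over all genes. The higher threshold and the unadjusted p change the counts by construction; for the scalings the cause was not tested.

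The Tnf difference between allogeneic and naive mice changed sign to 0.24 (median centring), 0.17 (quantile), 0.59 (CPM) and 0.60 (voom), and that of Nfkb1 to 0.52, 0.67, 0.88 and 0.88; the cause was not tested.

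With the replicate number as a block, members called with EPO were 6 higher and 23 lower (Casp1 and Tnfaip8 among those added). Those between allogeneic and naive mice were 2 and 22 (Map2k1 and Tnfsf4 added). Over all genes the block gave 182 higher and 218 lower with EPO and 92 and 439 between allogeneic and naive mice. The block removed no member's call, and the F-test gave 35 members, beside 629 genes. The block with median centring, chosen after seeing the data, gave 3 and 28 with EPO and 20 and 7 between allogeneic and naive mice, with Tnf at 0.24 and Nfkb1 at 0.52. Over all genes it gave 128 and 285 with EPO and 250 and 200 between allogeneic and naive mice.

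Leaving out each mouse in turn gave 4 to 4 higher and 16 to 22 lower with EPO, 2 to 3 higher and 18 to 21 lower between allogeneic and naive mice, 0 to 0 with CTLA4-Ig in either direction and 33 to 36 for the F-test. Over all genes it gave 154 to 181 higher and 176 to 209 lower with EPO. Between allogeneic and naive mice all genes gave 75 to 90 higher and 399 to 417 lower. Over members with full statistics, 337 of 359 values with EPO kept their direction and side of the threshold and 22 fell short of it; between allogeneic and naive mice 191 of 227 kept both, 10 reversed, 15 came to be called and 11 ceased to be; with CTLA4-Ig 158 of 160 kept both. The filter on the lowest 25% of genes leaves out Mapk12, Tnfaip6 and Tnfsf4, which then have no value.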
